A study of Mus musculus with 29 samples.

Results

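In 3T3-L1 cells given vehicle, 60 of the 11959 genes in the count table peaked on day 1 of adipogenic differentiation by a rule of 2 times. In cells that had been pretreated with the KDM5 inhibitor KDM5-C70 (C70), 56 of those 60 were still called higher on day 1 than on each other day (93.3%, beside 3.92% of all genes). That call has a lower limit on fold. The rule of 2 times was met with C70 by 16 of the 60 (26.7%, beside 0.242% of all genes). The 60 genes were chosen on the vehicle libraries alone. A gene was included when its mean level on day 1 was at least 5 CPM (the count scaled to a library total of 1000000) and at least 2 times its mean on each of days 0, 2 and 7. The difference between treatments was called for more members after the peak than at it. On day 1, 26 members were higher with C70 (43.3%, beside 13.6% of all genes) and 4 were lower (6.67%, beside 7.8% of all genes). On day 2, 54 were higher (90.0%, beside 16.9%) and 0 were lower (beside 13.6%). The vehicle libraries that chose the members were also the controls in these comparisons, so the counts describe the members.

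3T3-L1 is an established mouse line of fibroblast-like preadipocytes that turn into fat-storing adipocytes when they are stimulated after reaching confluence. Vehicle cells received DMSO, and treated cells received 10 µM KDM5-C70, in both cases from day -2 to day 0, that is, before differentiation was induced. RNA was then sequenced on days 0, 1, 2 and 7 in 29 libraries, with 3 vehicle and 4 C70 libraries on days 0, 1 and 2 and 4 of each on day 7. From day 0 on, the cells of the day 1, 2 and 7 groups, vehicle and C70 alike, were in the same induction medium, which held dexamethasone, insulin, isobutylmethylxanthine and a PPARγ agonist, and a maintenance medium from day 2 on, so that a comparison of days is also one of medium. All libraries come from the same cell line, and nothing in the labels says that libraries of a group were separate cultures, so p-values measure only the spread between these libraries, which may be technical.

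The induction medium acts through several known routes. Dexamethasone activates the glucocorticoid receptor, isobutylmethylxanthine blocks phosphodiesterases and so raises cyclic AMP, and insulin signals through its receptor and that of insulin-like growth factor. In the first days after induction, confluent 3T3-L1 cells re-enter the cell cycle while early transcription factors such as C/EBPβ give way to PPARγ and C/EBPα, the factors that hold the adipocyte state. KDM5 enzymes remove methyl groups from lysine 4 of histone H3, a mark found at active promoters, and are known mainly as repressors of transcription. A gene that peaks on day 1 is one whose transcript was raised after induction and was then lowered again while the cells went on to differentiate.

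Depth ranged from 16320275 to 24037170 counts a library. The summed level of 11 adipocyte markers on day 2 was 27829 to 29038 CPM in vehicle and 16667 to 18554 CPM with C70, and on day 1 it was 6660 to 7065 against 4373 to 4534 CPM. On day 0 this sum was higher with C70, at 1485 to 1612 CPM in vehicle and 1670 to 1723 CPM with C70. Most of it was Lpl, with means of 1285 CPM in vehicle and 1423 CPM with C70. By mean, 7 of the 11 markers were higher with C70 on day 0 and 4 were lower, Fabp4 and Pparg among the lower. On day 7 it overlapped, at 27706 to 30659 against 28583 to 30833 CPM. The summed level of 9 preadipocyte and fibroblast markers was 6103 to 6255 CPM in vehicle against 9464 to 10238 CPM with C70 on day 2 and 3772 to 4866 against 7413 to 8825 CPM on day 7. On day 1 the sums overlapped, where the means of Col1a1 and Col1a2 were lower with C70 and those of the other 7 markers were higher, among them Thy1 (53.5 and 140 CPM) and Ly6a (27.6 and 107 CPM). These markers moved with several of the results below, and their part in them was not tested. In bulk RNA, fewer cells of a kind and less RNA per cell cannot be told apart. The libraries were scaled together by the TMM method, whose factors lay between 0.898 and 1.08.

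In vehicle the ratio of the day 1 mean to the mean of the next-highest day ran from 2.00 to 4.86 over the 60 genes, with a median of 2.41. These values chose the members and carry no test. The next-highest day was day 2 for 39 members, day 0 for 19 and day 7 for 2. Just inside the limit of 2 lay Tgfbr3 (2.00), Aspn (2.01) and Foxc2 (2.01), and just outside lay Top2a, Fbxw7 and Ifi204, each at 1.98. At the limit of 5 CPM, Isl1 (5.52 CPM) was inside and Draxin (4.98 CPM) was outside. Together the 60 genes took 0.686% of all counts in vehicle on day 0, 2.36% on day 1, 0.911% on day 2 and 0.353% on day 7. With C70 the shares were 0.697%, 2.56%, 1.42% and 0.518%, so the summed share was closest between treatments on day 0.

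**Figure D1:**
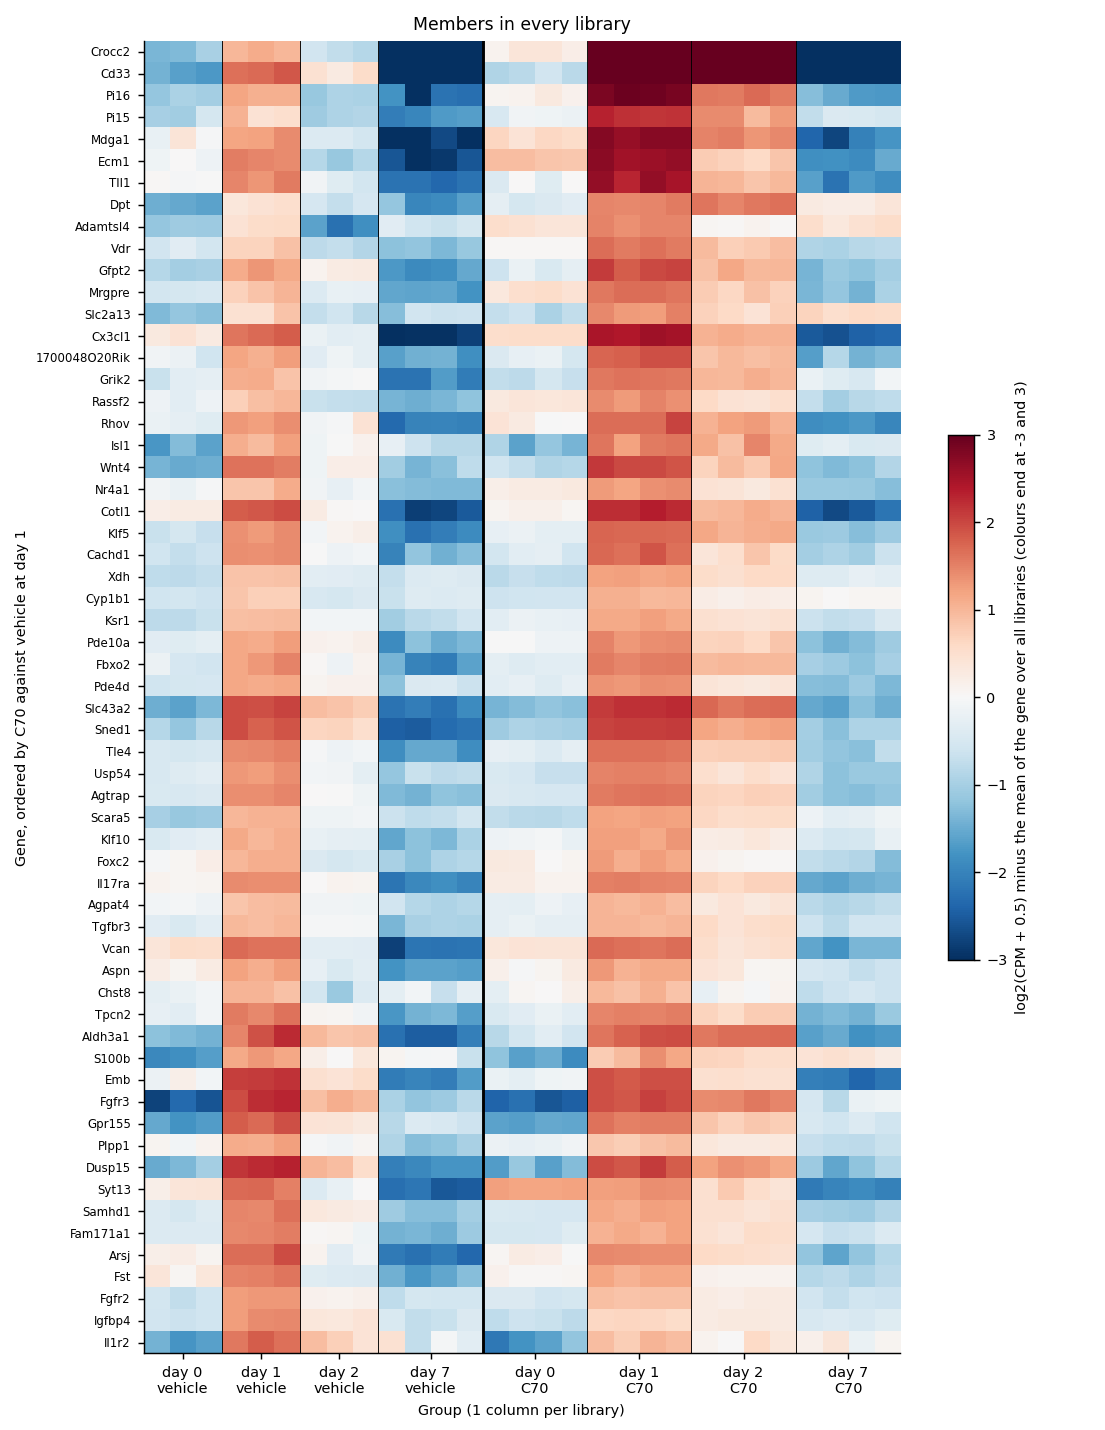
Level of each of the 60 genes in each of the 29 libraries, as log2(CPM + 0.5) minus the mean of that gene over all libraries; rows are ordered by the C70 effect on day 1, each column is 1 library, and the thick line parts vehicle from C70. The day 1 columns are the reddest block in both arms, and the day 2 columns stay redder with C70 than in vehicle.

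The C70 libraries took no part in choosing the members, so contrasts among them are an independent check of the peak. A gene was called when its adjusted p in edgeR's quasi-likelihood test (Benjamini-Hochberg over all 11959 genes) was under 0.05 and its log2 fold change was over 0.32 in size. Within C70 cells, 59 members were higher on day 1 than on day 0 (25.8% of all genes tested were), 57 were higher on day 1 than on day 2 (18.1%) and 60 were higher on day 1 than on day 7 (31.9%). All 3 contrasts were passed by 56 members, or 93.3%, against 3.92% of all genes tested. The median log2 difference in C70 cells was 1.90 for day 1 over day 0, 0.83 for day 1 over day 2 and 2.46 for day 1 over day 7. The 4 members without a called day 1 peak in C70 cells were Crocc2, Dpt and Aldh3a1, in which day 1 was not called above day 2, and Syt13, in which it was not called above day 0.

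The peak was nevertheless flatter with C70. The ratio of day 1 to the next-highest day ran from 0.896 to 3.33, with a median of 1.78, and only 16 of the 60 reached the ratio of 2 (0.242% of all genes, 29 in number, met the same rule in C70 columns). The next-highest day in C70 cells was day 2 for 55 members, day 0 for 4 and day 7 for 1. Since the members were picked for a high ratio in vehicle, a lower ratio in any other set of libraries is partly built into the choice. That rule applied to the C70 columns instead picked 29 genes, of which the 16 shared genes made up 55.2%, and the shared genes were 26.7% of the vehicle list.

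The members were compared between treatments on each day, with the same call. Since the vehicle libraries of days 0, 1, 2 and 7 both chose the members and served as controls here, these values describe the members and do not test the choice. On day 0, directly after the treatment, 20 members were higher (5.89% of all genes were) and 0 were lower (3.09%), and the members' median log2 fold change was 0.22. On day 1 the median was 0.26, and the 4 lower members were a share close to that over all genes. On day 2 the median was 0.75. On day 7, 37 were higher (14.3%) and 1 was lower (4.85%), with a median of 0.62. The median over all genes lay within 0.01 of 0 on each day. The highest shares among the members were thus on day 2 and the lowest on day 0.

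The same was counted by library, with no limit on fold. Every C70 library lay above every vehicle library for 29 members on day 0 (14% of all genes), 37 on day 1 (18.8%), 57 on day 2 (28.2%) and 35 on day 7 (13.1%). Every C70 library lay below every vehicle library for 3 members on day 0 (20.8%), 12 on day 1 (33.3%), 1 on day 2 (28.9%) and 0 on day 7 (18.8%). On day 0 and day 1 both directions thus held more members by library than by call. Read by gene across days 1 and 2, 26 members were higher on both days (9.89% of all genes), 27 were higher on day 2 alone (6.94%), 3 were lower on day 1 alone (2.88%), 1 was lower on day 1 and higher on day 2 (0.0669%), and 3 were called on neither day (63.2%). With no limit on fold, 39 members were higher on day 1 and 57 on day 2, so part of the group called on day 2 alone rests on that limit. Called higher on all 4 days were 13 members (2.06%), namely Ecm1, Dpt, Adamtsl4, Pi15, Pi16, Mrgpre, Vdr, Klf5, Rassf2, Gfpt2, Slc2a13, Crocc2 and Mdga1.

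The count of members lower on day 1 was 4 with all libraries and 7 without day 1 vehicle replicate 1, and 8 when the libraries were scaled by their totals alone. The count of members higher on day 2 was 52 to 54 whichever library was left out. Day 7 vehicle replicate 1 stood apart from the other 3 for several members (Tgfbr3, Vcan, Fgfr2 and Rhov), and without it 40 members were higher on day 7 and 1 was lower. It also stood apart over all genes. Its chi-square per degree of freedom against the other 3 was 39.8 to 46.7, beside 2.65 to 10.7 among those. All day 7 comparisons include this library unless it is said to be left out.

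**Figure D2:**
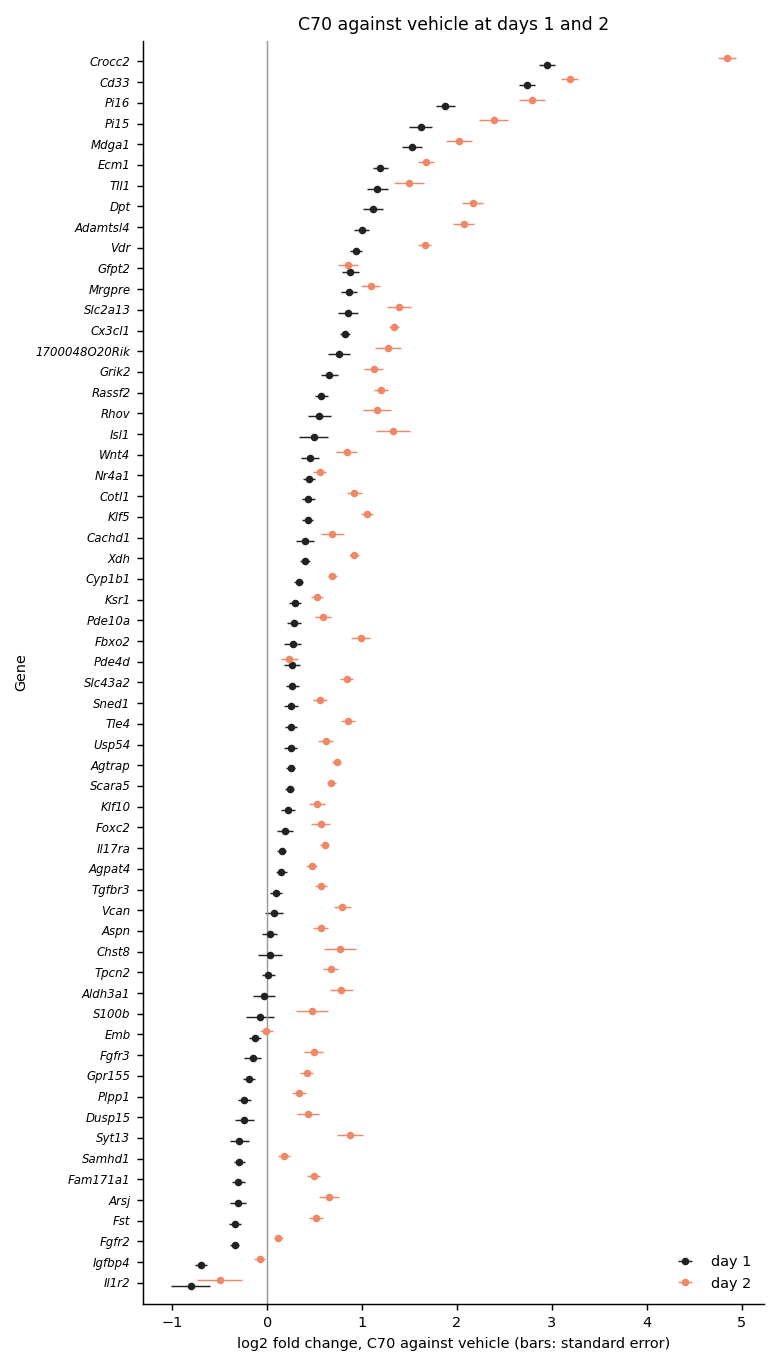
log2 fold change of C70 against vehicle for each of the 60 genes on day 1 (black) and day 2 (orange), with standard errors, ordered by day 1. The day 1 values run from -0.81 to 2.95 and the day 2 values from -0.50 to 4.85, and the day 2 point lies to the right for 58 of the 60 genes.

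The climb and the descent were compared between treatments by interaction terms, called at an adjusted p under 0.05 with no limit on fold. Both terms hold the vehicle means that chose the members, whose vehicle climb and drop are large in part by that choice, so the counts are a description. For the climb from day 0 to day 1 the members split. It was larger with C70 for 15 members (11.1% of all genes) and smaller for 8 (8.81%), and the median difference was 0.02 log2. The 15 were led by Cd33 (1.79), Crocc2 (1.38), Tll1 (1.34), Mdga1 (0.95) and Grik2 (0.92), and the 8 were Syt13 (-1.31), Aldh3a1 (-0.92), Igfbp4 (-0.64), Adamtsl4 (-0.63), Fgfr2 (-0.51), Gpr155 (-0.30), Samhd1 (-0.29) and Ksr1 (-0.26). The count of 8 became 5 without day 0 vehicle replicate 2 and also 5 without day 1 vehicle replicate 3. When members were chosen without the day 0 and day 1 vehicle libraries of 1 number and those libraries were then compared, a step added after the data were seen, the climb was larger with C70 for 34 of 63, 32 of 60 and 28 of 55 genes.

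For the step from day 1 to day 2 the members moved mostly one way. The median level left on day 2 was 56.2% of the day 1 level with C70 against 38.7% in vehicle, where the rule itself kept the vehicle share low for every member. The change was more positive with C70, meaning a smaller drop, for 47 members (11.1% of all genes) and more negative for 0 (8.77%), with a median difference of 0.52 log2. The estimate was above 0 for 58 members and below 0 for 2, Pde4d and Gfpt2. As a description, the rule was run without the day 1 and day 2 vehicle libraries of 1 replicate number. Those held-out libraries were then set against C70. The other vehicle libraries of the same days still chose the genes, and libraries of a group may be technical repeats. This step therefore cannot separate the smaller drop from the choice of members. The median log2 difference on day 2 was then 0.69, 0.78 and 0.79 for the libraries numbered 1, 2 and 3, against 0.74 with all libraries on the same scale. For the drop it was 0.51, 0.56 and 0.69, against 0.58 with all libraries, and it was smaller with C70 in 60 of 61, 59 of 60 and 52 of 53 genes. The 29 genes chosen in C70 columns, an alternative added after the data were seen, were set beside the members. Of these, 21 were higher and 1 was lower on day 1, and 27 were higher and 0 lower on day 2. Their median difference was 0.87 log2 on day 1 and 0.92 log2 on day 2. Gene by gene, the change from day 1 to day 2 was more positive with C70 for 18 of the 29 and more negative for 1, with a median of 0.39 log2. A high C70 level on day 1 is in turn part of what chose them.

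**Figure D3:**
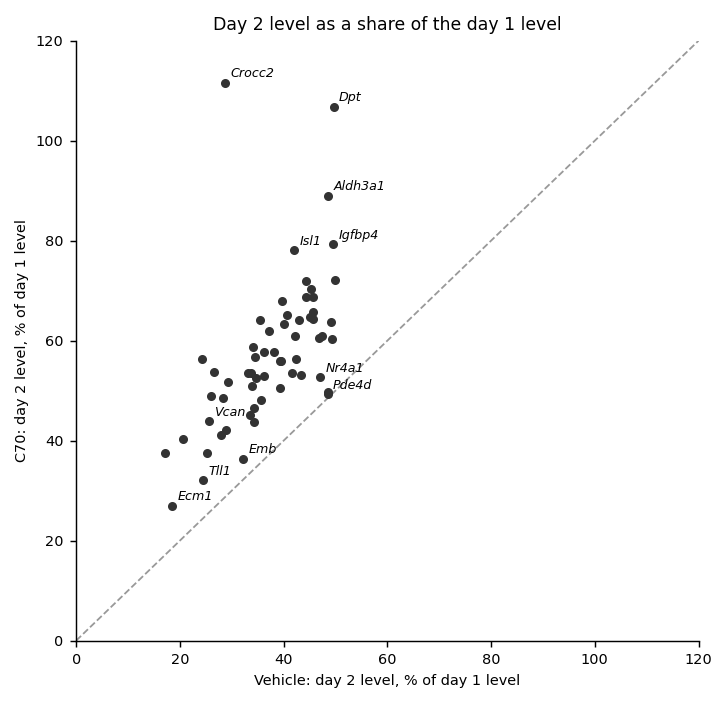
Day 2 level as a percentage of the day 1 level in vehicle (x axis) and with C70 (y axis), 1 point per gene from group means, with the dashed line marking equal values. All 60 points lie above the line, Pde4d and Gfpt2 only just, from 17.2 to 49.9% in vehicle and from 27% to 112% with C70, and Crocc2, Dpt and Aldh3a1 lie highest. The percentages use CPM by library totals. The interaction estimates used TMM scaling, under which those of Pde4d and Gfpt2 were slightly negative.

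Higher day 2 levels were also seen among other genes that came down after day 1. Of 488 other genes whose vehicle mean fell at least 2 times from day 1 to day 2, 441 were higher with C70 on day 2 (90.4%, beside 90.0% of the members), 4 were lower, and the drop was smaller with C70 for 318 (65.2%, beside 78.3% of the members). Of 490 genes whose vehicle mean climbed at least 2 times over the same step, 390 were lower with C70 on day 2 (79.6%) and 19 were higher (3.88%). Both of these gene groups were chosen on the same vehicle libraries, and no test was made of them.

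**Figure D4:**
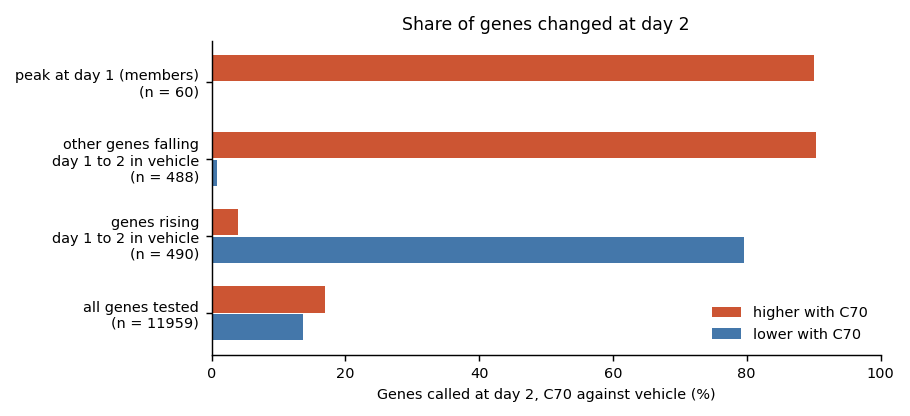
Percentage of genes called higher (red) or lower (blue) with C70 on day 2 among the 60 members, 488 other genes that fell at least 2 times from day 1 to day 2 in vehicle, 490 genes that climbed at least 2 times, and all 11959 genes. The members (90.0% higher) and the other falling genes (90.4% higher) have bars of nearly equal length, and among the climbing genes the lower calls (79.6%) outnumber the higher.

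The members were grouped by what they are known to do, a grouping made after their values were known. Of 9 genes for matrix and secreted proteins, 5 were higher on day 0, 6 on day 1, 9 on day 2 and 9 on day 7, and 0 were lower on any day. The shares called higher on these days were 33.3%, 43.3%, 90.0% and 61.7% of all members and 5.89%, 13.6%, 16.9% and 14.3% of all genes. The counts of this group and of those that follow are a description beside these shares, and on day 2 most genes of each group were higher, as over the members as a whole. The median log2 fold change was 1.12 on day 1 and 1.67 on day 2, the highest of the groups on both days. The group was made up of Vcan, Ecm1, Aspn, Dpt, Sned1, Adamtsl4, Tll1, Pi15 and Pi16. Igfbp4, Fst and Wnt4 also encode secreted proteins but were placed with the ligands and ligand-binding proteins below. Of these, Igfbp4 and Fst were lower on day 1 and Wnt4 was higher. The absence of lower genes from the matrix group and its high median thus depend on the grouping.

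Ecm1 encodes extracellular matrix protein 1, a secreted glycoprotein that binds other matrix molecules. On day 1 it stood at 282, 269 and 263 CPM in vehicle and at 633, 559, 582 and 606 CPM with C70, and on day 2 at 53.3, 44.0 and 53.6 CPM against 164, 157, 149 and 172 CPM. The C70 libraries lay above the vehicle libraries on both days without overlap. C70 raised Ecm1 by a log2 fold change of 1.19 ± 0.08 (SE) on day 1 and 1.67 ± 0.09 on day 2, with edgeR adjusted p of 3.9e-13 and 4.2e-16. It was already 0.99 ± 0.08 on day 0. Its ratio of day 1 to the next-highest day, which was day 0 in both arms, was 2.95 in vehicle and 3.33 with C70, the highest among the members in C70 cells. Its day 2 level was 18.6% of the day 1 level in vehicle and 27% with C70, and the drop was smaller with C70 by 0.48 ± 0.11 log2 (adjusted p 0.0025, edgeR interaction).

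Pi16, peptidase inhibitor 16, marks fibroblasts and progenitor cells in several connective tissues. Its day 1 level was 15.1, 13.8 and 13.8 CPM in vehicle and 48.2, 52.0, 51.7 and 49.1 CPM with C70, and its day 2 level 2.64, 3.11 and 3.04 CPM against 19.9, 19.7, 21.8 and 19.8 CPM. The groups were far apart on both days, and even the day 2 level with C70 was above the vehicle peak. Pi16 was higher by a log2 fold change of 1.88 ± 0.10 on day 1 and 2.79 ± 0.13 on day 2, and Pi15, a related secreted protein, went the same way with 1.62 ± 0.12 and 2.39 ± 0.15. In vehicle, Pi16 had the highest ratio of day 1 to the next-highest day of all members, 4.86, and with C70 this was 2.48.

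Dermatopontin, encoded by Dpt, is a small matrix protein that binds decorin and assists collagen fibril formation. In vehicle it went from 110, 117 and 124 CPM on day 1 to 60.7, 52.8 and 60.8 CPM on day 2, and with C70 it was at 239, 236, 241 and 259 CPM and then at 266, 241, 260 and 275 CPM. The C70 groups of both days overlapped each other, with no drop between them. The change from day 1 to day 2 differed between treatments by 1.05 ± 0.14 log2 (adjusted p 3.5e-06, edgeR interaction), and on day 7 Dpt was still higher with C70 by 1.96 ± 0.10.

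Versican and Sned1 were the most abundant matrix genes of the group. Versican (Vcan), a large chondroitin sulfate proteoglycan, stood on day 1 at 5028, 4768 and 4789 CPM in vehicle and 5026, 4860, 4760 and 4968 CPM with C70, and on day 2 at 1254, 1240 and 1234 CPM against 2240, 1984, 2141 and 2238 CPM. The treatments overlapped at the peak and parted on day 2. The log2 fold change was 0.07 ± 0.09 on day 1 (adjusted p 0.58, edgeR), which was not called, and 0.79 ± 0.09 on day 2 (adjusted p 2.1e-08). In Sned1, a matrix glycoprotein, the C70 libraries lay above the vehicle libraries on both days, with mean levels of 7037 and 8045 CPM on day 1 and 2922 and 4302 CPM on day 2, and its log2 fold change was 0.25 ± 0.08, below the limit on fold, and then 0.56 ± 0.08. Per kilobase of exon, Sned1 had the highest day 1 level of all members in vehicle, 741 CPM per kb, ahead of Igfbp4 with 481, Vcan with 336 and Aspn with 327.

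The other matrix genes were called on different sets of days, and no test was made between genes. Asporin (Aspn), a leucine-rich proteoglycan, was not called on day 0 or day 1 and was higher by 0.56 ± 0.08 on day 2 and 1.12 ± 0.08 on day 7. Tll1, a tolloid-like protease that processes procollagen, was not called on day 0 (-0.18 ± 0.17) and was higher by 1.16 ± 0.11 on day 1. Adamtsl4, a secreted protein of the ADAMTS-like family associated with fibrillin, was higher already by 1.63 ± 0.10 on day 0, the largest day 0 difference among the members, and by 2.07 ± 0.11 on day 2.

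Of 14 genes for ligands, ligand-binding proteins and receptors, 5 were higher and 4 were lower on day 1, and 11 were higher on day 2. Over all genes, 13.6% were higher and 7.8% lower on day 1, and 16.9% were higher on day 2. The 4 were all of the members lower on day 1 (6.67% of the 60), in a group made after the values were known. They were Igfbp4, Fgfr2, Fst and Il1r2.

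Igfbp4, which binds insulin-like growth factors and limits their action, lies at chr11:99041244-99054392 on the plus strand (GRCm38). On day 1 it stood at 1964, 2188 and 2221 CPM in vehicle and 1260, 1290, 1267 and 1213 CPM with C70, and on day 2 at 1040, 1018 and 1101 CPM against 972, 1003, 1012 and 999.8 CPM. The groups were apart on day 1, with C70 below, and near each other on day 2 with C70 lower in every library. The fold change was -0.70 ± 0.06 log2 on day 1 (adjusted p 1.1e-10, edgeR) and -0.08 ± 0.06 on day 2 (adjusted p 0.28), and on day 0 it was -0.06 ± 0.06. Its climb from day 0 to day 1 was smaller with C70 by 0.64 ± 0.09 log2 (adjusted p 2.6e-06, edgeR interaction).

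Fgfr2, a receptor for fibroblast growth factors, was also lower with C70 on day 1, but not on day 2. It was at 471, 486 and 492 CPM on day 1 in vehicle and at 373, 360, 364 and 364 CPM with C70, and at 218, 214 and 222 CPM against 236, 229, 240 and 241 CPM on day 2. C70 lay below vehicle on day 1 and slightly above it on day 2, without overlap on either day. The log2 fold changes were -0.35 ± 0.05 and 0.12 ± 0.05, and only the first was called. Fgfr3, a second receptor of the family, was not called on day 1 (-0.15 ± 0.09) and was higher by 0.49 ± 0.10 on day 2, although its reads could be shared with a named pseudogene.

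Follistatin (Fst), a secreted antagonist of activin, changed sides. On day 1 it was at 137, 139 and 149 CPM in vehicle and at 112, 101, 110 and 110 CPM with C70, and on day 2 at 38.0, 36.8 and 36.0 CPM against 53.3, 52.6, 52.6 and 52.9 CPM. The groups did not overlap on either day, and their order was turned round. The log2 fold change was -0.34 ± 0.06 on day 1 (adjusted p 7.6e-05, edgeR) and 0.51 ± 0.07 on day 2 (adjusted p 3.7e-07), and the difference between the 2 days was 0.85 ± 0.09 (adjusted p 1.3e-07). The day 1 value lies close to the limit on fold, and the call was lost without day 1 vehicle replicate 3 (-0.30) and without day 1 C70 replicate 2 (-0.31), at adjusted p of 0.0017 and 0.00065. Il1r2, the decoy receptor of interleukin-1, was at 6.86, 8.18 and 7.21 CPM in vehicle and at 4.13, 3.57, 4.50 and 4.12 CPM with C70 on day 1, again without overlap, and its log2 fold change was -0.81 ± 0.20.

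Cd33 and Cx3cl1 went up. Cd33 (chr7:43524216-43544428, minus strand) encodes a sialic acid-binding lectin known from myeloid cells. It stood on day 1 at 30.2, 31.1 and 35.3 CPM in vehicle and 218, 190, 201 and 219 CPM with C70, and on day 2 at 13, 11.3 and 13.8 CPM against 123, 125, 105 and 108 CPM. The C70 libraries were far above the vehicle libraries on both days, yet on day 7 every library of both treatments was under 0.5 CPM. Cd33 was higher by 2.74 ± 0.08 log2 on day 1 and 3.19 ± 0.09 on day 2, and the climb was larger by 1.79 ± 0.19. Of 6 macrophage markers only Cd68 was in the count table, at 1.85 to 2.17 CPM in vehicle and 13.9 to 15.4 CPM with C70 on day 1, and its part in the Cd33 result was not tested. With C70, Cd68 was highest on day 0 and not on day 1, at 19.1 to 20 CPM.

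Cx3cl1, the chemokine fractalkine, stood at 168, 179 and 193 CPM on day 1 in vehicle and 302, 291, 319 and 310 CPM with C70, and on day 2 at 47.9, 43.4 and 44.8 CPM against 113, 118, 114 and 114 CPM. The C70 libraries lay above the vehicle libraries on both days, and the ratio of day 1 to day 2 was 3.97 in vehicle and 2.66 with C70. Its increase was 0.82 ± 0.05 log2 on day 1 and 1.34 ± 0.05 on day 2. Wnt4, a Wnt ligand, was higher by 0.45 ± 0.10 on day 1 and 0.84 ± 0.11 on day 2. Grik2, a glutamate receptor subunit, was higher by 0.65 ± 0.09 on day 1 and by 2.13 ± 0.14 on day 7, the largest day 7 difference among the members.

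A further set of receptors was called on day 2 and not on day 1. Tgfbr3, the co-receptor betaglycan for TGF-β ligands, had means of 980 and 1005 CPM on day 1 and 489 and 724 CPM on day 2, and its log2 fold change was 0.09 ± 0.07 and then 0.56 ± 0.07. Il17ra, the interleukin-17 receptor, gave 0.15 ± 0.05 and then 0.60 ± 0.05, and Scara5, a scavenger receptor that binds ferritin, gave 0.24 ± 0.05 and then 0.68 ± 0.05. None of these day 1 values passed the limit on fold. Gpr155, an integral membrane protein of the lysosome, had a day 1 value of -0.20 ± 0.06 and was higher by 0.42 ± 0.07 on day 2, whereas Mrgpre, an orphan G protein-coupled receptor, was higher on day 0 (1.06 ± 0.10), day 1 (0.86 ± 0.08) and day 2 (1.09 ± 0.10).

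**Figure D5:**
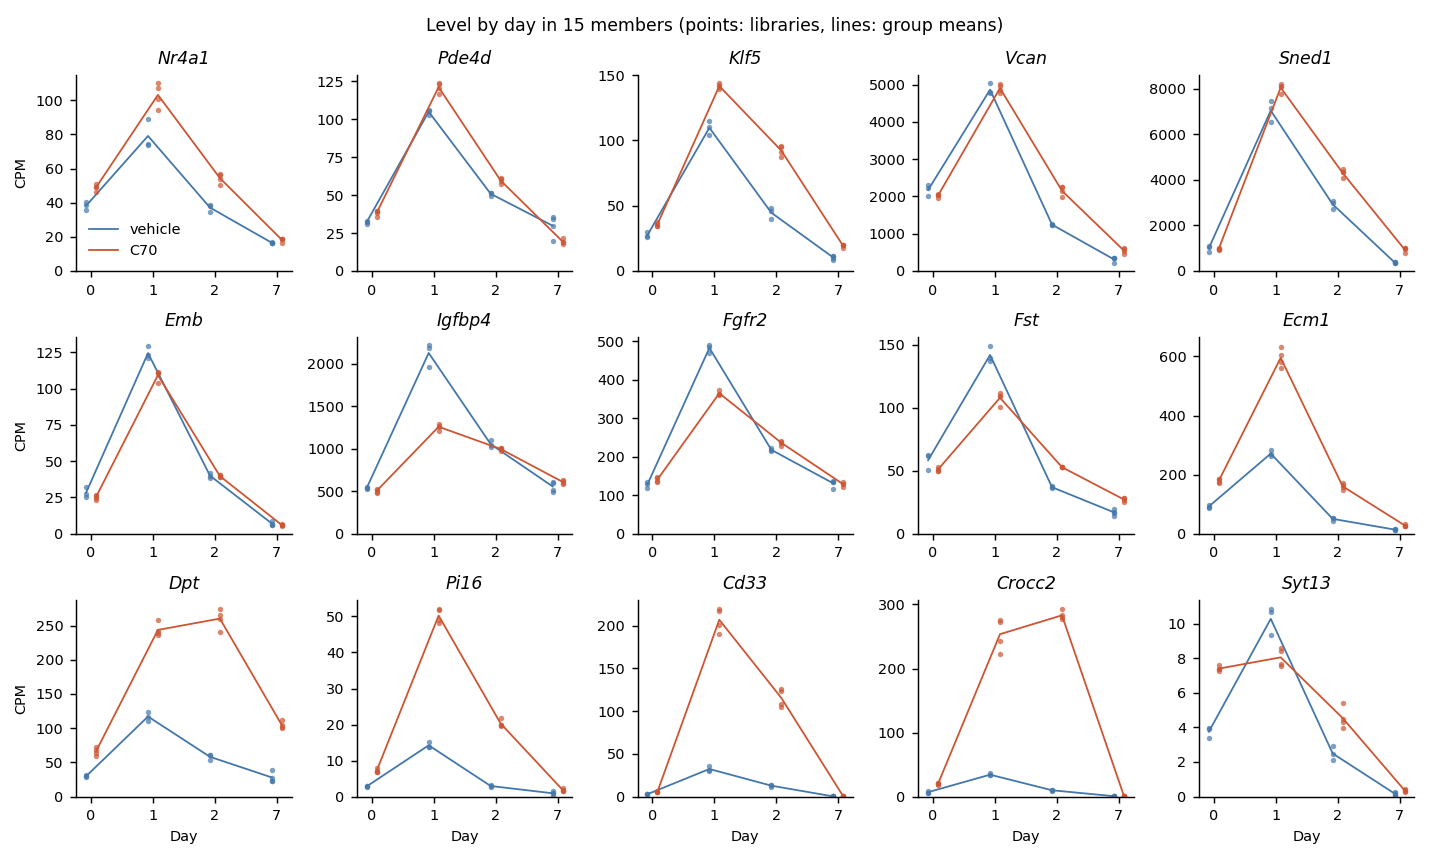
CPM by day for 15 members, with 1 point per library and lines through the group means, vehicle in blue and C70 in red, each panel with its own axis from 0. Igfbp4, Fgfr2 and Fst have lower day 1 peaks with C70, Vcan parts on day 2 and Sned1 more on day 2 than on day 1, and Dpt and Crocc2 show no drop from day 1 to day 2 with C70.

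Of 7 genes for transcription factors and co-factors, 3 were higher on day 0, 4 on day 1, 7 on day 2 and 4 on day 7, and 0 were lower. They were Nr4a1, Klf5, Klf10, Tle4, Isl1, Foxc2 and Vdr. Nr4a1 (Nur77) is an orphan nuclear receptor and a well-known immediate target of cyclic AMP signalling, and it is one of the 3 members on a list of 38 cyclic AMP-responsive genes, with the phosphodiesterase genes Pde4d and Pde10a.

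The cyclic AMP element TGACGTCA and its shorter form TGACG were looked for on both strands of RefSeq promoters (GRCm38.p6, from 250 bases before to 50 bases after a start site), where each full element also holds the short form. Promoters were matched for 46 of the 60 members. The full element was in 0 of the 46 and in 3.67% of 9007 genes of the count table with a promoter, and the short form was in 13 of the 46 (28.3%) against 37.1%. Members that held the short form more than once before the start site were Nr4a1, with 4 copies starting 233, 213, 69 and 40 bases before it, Isl1 with 2 and Usp54 with 2. Their 250 bases before the start site are shown because they are the densest matches among the members, at chr15:101266596-101266845 (plus strand), chr13:116309689-116309938 (minus strand) and chr14:20618355-20618604 (minus strand), and capitals mark TGACG or its reverse complement CGTCA.
Nr4a1: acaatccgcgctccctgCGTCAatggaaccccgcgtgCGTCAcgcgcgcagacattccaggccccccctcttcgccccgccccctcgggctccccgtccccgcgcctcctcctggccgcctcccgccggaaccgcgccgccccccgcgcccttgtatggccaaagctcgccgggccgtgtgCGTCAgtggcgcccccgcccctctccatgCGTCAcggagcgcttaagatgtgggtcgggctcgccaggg
Isl1: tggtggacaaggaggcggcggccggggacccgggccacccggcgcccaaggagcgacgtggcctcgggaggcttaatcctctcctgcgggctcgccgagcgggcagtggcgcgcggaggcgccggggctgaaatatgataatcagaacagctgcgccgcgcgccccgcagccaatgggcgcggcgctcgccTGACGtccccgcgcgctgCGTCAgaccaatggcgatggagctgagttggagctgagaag
Usp54: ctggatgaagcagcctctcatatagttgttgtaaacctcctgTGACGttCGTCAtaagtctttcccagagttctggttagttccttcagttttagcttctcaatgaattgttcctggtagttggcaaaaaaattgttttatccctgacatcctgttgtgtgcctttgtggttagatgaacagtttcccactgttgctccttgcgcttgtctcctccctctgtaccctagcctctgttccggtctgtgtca

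Other motifs were searched on both strands in the same way. The palindromic glucocorticoid response element was in 0 of the 46 and 0.0111% of all genes, the AP-1 element TGANTCA in 4 (8.70%) and 5.63%, the C/EBP element TTGCGCAA in 1 (Samhd1) and 0.366%, the CCAAT box in 39.1% and 43.6%, and the GC box GGGCGG in 58.7% and 70.6%. A match is a string of letters in this window, and its absence says nothing about a factor that binds elsewhere.

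Nr4a1 was at 74.0, 74.1 and 89.1 CPM on day 1 in vehicle and at 101, 94.4, 107 and 110 CPM with C70, and at 38.3, 34.5 and 38.6 CPM against 55.9, 54.1, 50.4 and 57.0 CPM on day 2. C70 libraries were above vehicle libraries on both days, with nearly the same proportion between days. The log2 fold change was 0.39 ± 0.07 on day 0, 0.44 ± 0.07 on day 1 and 0.55 ± 0.07 on day 2, and the step from day 1 to day 2 did not differ by the test (0.11 ± 0.10, adjusted p 0.48, edgeR).

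Pde4d and Pde10a encode phosphodiesterases, which break down cyclic AMP or both cyclic nucleotides, and were at 105 and 26.1 CPM in mean on day 1 in vehicle and at 121 and 30.4 CPM with C70. Pde4d kept its curve almost exactly, with day 2 at 48.5% of day 1 in vehicle and 49.2% with C70, and was the only member called lower on day 7 (-0.57 ± 0.10). On that day vehicle stood at 19.6, 34.5, 35.4 and 29.7 CPM and C70 at 19.1, 18.8, 21.7 and 18 CPM. Vehicle replicate 1, which stood apart over all genes, thus lay among the C70 libraries. Of the whole cyclic AMP list, 28 genes were in the table, of which 14 were higher and 1 lower on day 1 and 13 were higher and 1 lower on day 2 (beside 13.6%, 7.8%, 16.9% and 13.6% of all genes). Of the 28, 11 (39.3%) had their highest vehicle mean on day 1, beside 20.9% of all genes. Over the other gene lists, described below, this share ran from 0.0% (cholesterol synthesis among them) to 60.4% (G2/M genes).

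Klf5, a Krüppel-like factor that acts early in adipogenesis, was the one member on a list of 27 adipogenic regulators. It went from 110, 104 and 115 CPM on day 1 to 40.0, 45.6 and 48.2 CPM on day 2 in vehicle, and from 144, 142, 141 and 139 CPM to 95.8, 87.4, 91.2 and 94.7 CPM with C70. C70 lay above vehicle on both days and the gap was wider on day 2. Klf5 was higher by 0.43 ± 0.06 log2 on day 1 and 1.05 ± 0.06 on day 2, and the drop was smaller by 0.62 ± 0.09 (adjusted p 4.9e-06, edgeR interaction). Of the 24 genes of that list in the table, 5 were higher and 4 lower on day 1, and 6 higher and 5 lower on day 2, where all genes were also called in both directions (13.6% and 7.8% on day 1, 16.9% and 13.6% on day 2).

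Vdr, the vitamin D receptor, was at 78.8, 79.2 and 90.4 CPM on day 1 in vehicle and 160, 146, 156 and 147 CPM with C70, and at 28.5, 29.7 and 26.5 CPM against 95.3, 81.2, 85.8 and 94.3 CPM on day 2. Its day 2 levels with C70 overlapped its vehicle peak. Vdr was higher by a log2 fold change of 0.93 ± 0.06 and then 1.66 ± 0.07. Tle4, a Groucho co-repressor, Klf10, a TGF-β-induced factor, and Foxc2, a forkhead factor, were not called on day 1 (0.25 ± 0.06, 0.22 ± 0.08 and 0.19 ± 0.08) and were higher on day 2 (0.85 ± 0.07, 0.52 ± 0.08 and 0.57 ± 0.10). Isl1, a LIM homeobox factor at low level, was higher by 0.49 ± 0.15 on day 1, a call lost without day 1 vehicle replicate 2, and by 1.32 ± 0.18 on day 2.

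Of 7 genes for signalling inside the cell, 2 were higher on day 1 and 6 on day 2, Pde4d being the exception. Rassf2, a Ras-association protein, was higher by 0.57 ± 0.07 on both day 0 and day 1 and by 1.20 ± 0.07 on day 2. Rhov, a small GTPase, was higher by 0.55 ± 0.12 on day 1 and 1.16 ± 0.15 on day 2. Ksr1, a scaffold of the MAP kinase pathway, was higher by 0.55 ± 0.07 on day 0 and its climb to day 1 was smaller by 0.26 ± 0.09. Agtrap, which binds the angiotensin II type 1 receptor, and Dusp15, a phosphatase, were not called on day 1 (0.24 ± 0.05 and -0.24 ± 0.10) and were higher on day 2 (0.73 ± 0.05 and 0.43 ± 0.12).

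Of 12 genes for enzymes and transporters, 4 were higher on day 1 and 11 on day 2. The step from day 1 to day 2 was more positive for 11, beside 78.3% of all members and 11.1% of all genes. Xanthine dehydrogenase (Xdh), which makes uric acid, was at 1163, 1155 and 1177 CPM on day 1 in vehicle and at 1465, 1499, 1429 and 1486 CPM with C70, and at 513, 502 and 487 CPM against 939, 892, 972 and 972 CPM on day 2. Both days were separated without overlap, by 0.39 ± 0.05 and 0.91 ± 0.05 log2. Cyp1b1, a cytochrome P450 that oxidises steroids and xenobiotics, was near Xdh in mean level on day 1 (1176 CPM in vehicle and 1419 CPM with C70). Its changes were 0.33 ± 0.05 on day 1 and 0.68 ± 0.05 on day 2, and the 2 genes were not compared by a test.

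Gfpt2, which feeds glucose carbon into hexosamine synthesis, was higher on day 1 and day 2 by nearly the same amount, 0.87 ± 0.09 and 0.85 ± 0.11, and the step between these days was not called (-0.02 ± 0.14). Slc2a13, a myo-inositol transporter, was higher by 0.85 ± 0.11 and then 1.39 ± 0.13. Slc43a2, an amino acid transporter, and Tpcn2, a lysosomal channel, were not called on day 1 (0.26 ± 0.07 and 0.01 ± 0.07) and were higher on day 2 (0.84 ± 0.07 and 0.67 ± 0.08). Aldh3a1, an aldehyde dehydrogenase, was at 22.6, 31.2 and 39.4 CPM on day 1 in vehicle and 25.1, 28.2, 31.6 and 31.9 CPM with C70, groups that overlapped fully, and at 16.1, 14.4 and 14.9 CPM against 24.6, 26.3, 26.4 and 26.8 CPM on day 2. With C70 it kept 89.0% of its day 1 level on day 2.

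Samhd1, a nucleotide triphosphohydrolase, and Emb, the membrane glycoprotein embigin, were the 2 members not called on any day. Samhd1 was at 446, 439 and 502 CPM on day 1 in vehicle and 359, 341, 376 and 372 CPM with C70, without overlap. Its log2 fold change of -0.30 ± 0.06 (adjusted p 0.00018, edgeR) fell short of the limit on fold. Emb was at 121, 123 and 129 CPM against 111, 104, 111 and 111 CPM on day 1, and its estimates on the 4 days lay between -0.17 and -0.01. Arsj, Fam171a1 and Plpp1 also had day 1 estimates below 0 (-0.31 ± 0.09, -0.30 ± 0.06 and -0.24 ± 0.07) that were within the fold limit, and all 3 were higher on day 2 (0.65 ± 0.10, 0.49 ± 0.07 and 0.33 ± 0.07).

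Crocc2, a relative of the ciliary rootlet protein rootletin, gave the largest differences of all members on days 1 and 2. It was at 33.3, 36.0 and 33.1 CPM on day 1 in vehicle and 243, 222, 276 and 273 CPM with C70, and at 10.9, 9.63 and 8.86 CPM against 277, 292, 280 and 283 CPM on day 2. The C70 libraries stood far above vehicle on both days, each day 2 library lay above each day 1 library, and on day 7 they were between 0.744 and 1.49 CPM. The log2 fold change was 1.57 ± 0.11 on day 0, 2.95 ± 0.08 on day 1 and 4.85 ± 0.10 on day 2, and the step from day 1 to day 2 differed by 1.90 ± 0.12 (adjusted p 1.1e-11, edgeR interaction).

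Crocc2 (chr1:93168725-93231072) ends 4.77 kb before Sned1 (chr1:93235841-93301065) on the same strand. In vehicle both climbed and fell, with means on days 0, 1 and 2 of 6.81, 34.1 and 9.80 CPM for Crocc2 and 996, 7037 and 2922 CPM for Sned1. In C70 cells Sned1 went from 8045 CPM on day 1 to 4302 CPM on day 2 while Crocc2 went from 254 to 283 CPM. On that step with C70 the levels of these neighbours did not move in proportion, and a link between them was not tested. A further 2 pairs of members lay within 100 kb of each other, Adamtsl4 with Ecm1 on chromosome 3 (46.2 kb apart) and Agtrap with Fbxo2 on chromosome 4 (72.6 kb apart). The members of each of these 2 pairs were both higher on day 2. For 14 of the 60 members an exon overlapped that of a gene on the other strand, and the strand setting of the counting is not given in the sources used here, so reads of such pairs, Pi16, Fst and Usp54 among them, cannot be told apart. For 5 members (Fgfr2, Sned1, Ecm1, Tgfbr3 and 1700048O20Rik) an exon overlapped that of another gene on the same strand, and their counts are uncertain to that extent. The members lay on 16 chromosomes, and 59 were protein-coding, the other being the long non-coding RNA gene 1700048O20Rik, which was higher by 0.75 ± 0.11 on day 1 and 1.27 ± 0.14 on day 2.

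Syt13, a synaptotagmin, had no called climb in C70 cells. It was at 3.36, 3.89 and 3.99 CPM on day 0 in vehicle and at 7.59, 7.35, 7.25 and 7.41 CPM with C70, and on day 1 at 10.7, 10.8 and 9.36 CPM against 7.56, 7.65, 8.58 and 8.43 CPM. C70 lay above vehicle on day 0 and below it on day 1, without overlap on either day. On day 2 it was again higher with C70, with means of 4.54 and 2.49 CPM and a log2 fold change of 0.87 ± 0.13, and on day 7, at means under 0.5 CPM, the log2 fold change was 1.12 ± 0.37. The climb was smaller by 1.31 ± 0.15 log2 (adjusted p 2.5e-07, edgeR interaction), whereas the day 1 difference alone, -0.30 ± 0.10, was within the fold limit. Mdga1, a GPI-anchored adhesion protein, was by contrast higher by 0.57 ± 0.13 on day 0, 1.52 ± 0.11 on day 1 and 2.02 ± 0.13 on day 2, and Cotl1, which binds filamentous actin, by 0.43 ± 0.07 on day 1 and 0.92 ± 0.08 on day 2. Of the remaining members, Cachd1, a cache-domain protein, was higher by 0.40 ± 0.10 on day 1 and 0.68 ± 0.12 on day 2, and Usp54, Fbxo2, S100b, Chst8 and Agpat4 were not called on day 1 and were higher on day 2 by 0.61 ± 0.08, 0.98 ± 0.10, 0.47 ± 0.17, 0.76 ± 0.17 and 0.47 ± 0.06.

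Other pathways of the first day were compared with the members by gene lists, drawn up with earlier results of these data known. Of the 75 S phase genes, 53 G2/M genes and 30 glucocorticoid-responsive genes tested, 0 were members, where the members are 0.502% of all genes and lists of this size would hold few or none. On day 1, 44 of the S phase genes and 36 of the G2/M genes were lower with C70 and 0 were higher, and on day 2, 50 of each were lower, beside 7.8% and 13.6% of all genes called lower on these days. The G2/M gene Top2a lay just outside the rule. The list of matrix remodelling genes held 1 member, Vcan, and of its 28 genes 14 were higher and 3 lower on day 1 and 21 were higher and 0 lower on day 2, beside 13.6% and 16.9% of all genes called higher. The remaining lists, among them ribosome biogenesis, cholesterol synthesis, glycolysis, cytokines and ERK feedback inhibitors, held no member. Transcripts of the KDM5 genes Kdm5a, Kdm5b and Kdm5c were called on neither day 1 nor day 2.

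Finally, 13 genes met the rule in C70 columns and not in vehicle. They were chosen on C70 values, so their levels are a description. Il1rl1, the receptor of interleukin-33, had vehicle means of 53.6, 30.1 and 7.53 CPM on days 0, 1 and 2 and C70 means of 73.0, 148 and 47.9 CPM, so that a decline in vehicle stood beside a peak with C70. Masp1, a protease of the lectin pathway of complement, reached 121 CPM on day 1 in vehicle and 308 CPM with C70, and Lbp, the lipopolysaccharide-binding protein, reached 19.3 against 61.7 CPM. The other 10 were Ceacam1, Csrp2, Ehd3, Gdpd2, Hopx, Olfml2b, Pcolce2, Spon2, Tm4sf1 and Zfp658. Several of them narrowly missed the rule in vehicle, with ratios of 1.97 for Gdpd2 and 1.88 for Tm4sf1, while Il1rl1 had 0.563.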

How the data were processed

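RNA was measured in 29 libraries of 3T3-L1 cells. The authors used STAR 2.7.2a with GRCm38 and the Ensembl 97 annotation, and the deposited table holds whole-number counts per gene, not normalized although its name says so. The counting program, strand setting and filter on low genes are not given in the sources used here. Every gene had a CPM over 1 in at least 20 libraries, so genes near 0 outside day 1 are not analysed here. The authors' methods name edgeR.

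The counts were fitted with edgeR 4.0.16 (R 4.3.3; TMM scaling, 1 mean per group, all 29 libraries, quasi-likelihood test), and p-values were adjusted over 11959 genes. A gene was called at an adjusted p under 0.05 and a log2 fold change over 0.32 in size, and an interaction at an adjusted p under 0.05. CPM used library totals. The members and lists were chosen with earlier results of these data known. The rule for named genes took the 10 sharpest vehicle peaks, up to 10 largest day 1 changes each way, members on a list, genes nearest the limits, the 5 highest and 5 lowest ratios in C70 cells and the KDM5 genes; other members were named after their values were seen. Alternatives were DESeq2 1.42.0, limma voom 3.58.1, other scalings and filters, a replicate block, and leaving out each library. Replicate pairs differed by more than sampling noise (chi-square per degree of freedom 2.65 to 46.7 over 39 pairs), so none was counted as a repeat. On simulated counts for day 1, 98.0% of 200 genes changed 2-fold were recovered among 11959. The 200 were drawn only from genes above a minimum mean count, and smaller changes were not simulated. Depth of 16320275 to 24037170 counts gave every member at least 71 counts in each day 1 library. Coordinates are from GENCODE vM21 (GRCm38), and promoters from RefSeq (GRCm38.p6).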

Additional observations from a re-analysis of the deposited data

Results flagged for a closer look

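Effects of C70 that differed between days were tested by interaction terms in edgeR. The C70 effect on Fst was more positive on day 2 than on day 1 by 0.85 log2. The effect was more positive on day 1 than on day 0 for 15 members (11.1% of all genes) and more negative for 8 (8.81%). The effect was more positive on day 2 than on day 1 for 47 (11.1%) and more negative for 0 (8.77%).

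Among 165 groups of 4 libraries in named members, 16 held a library far from the other 3, and chance flags about 1 in 20 groups. On day 7, vehicle replicate 1 was such a library for Fgfr2 (116 CPM), Rhov (0.106 CPM), Tgfbr3 (192 CPM) and Vcan (223 CPM), and vehicle replicate 3 for Tll1 (0.0933 CPM). With C70 on day 1, replicate 2 stood apart for Emb (104 CPM), Isl1 (5.99 CPM) and Mdga1 (39.8 CPM), replicate 3 for Tgfbr3 (987 CPM), and replicate 4 for Rhov (12.1 CPM) and Tle4 (73.9 CPM). With C70 on the other days, the libraries were replicate 2 for Tgfbr3 on day 0 (436 CPM), replicate 2 for Cx3cl1 on day 2 (118 CPM), replicate 3 for Pi16 on day 2 (21.8 CPM), replicate 3 for Klf5 on day 7 (17.3 CPM) and replicate 4 for Nr4a1 on day 7 (16.6 CPM).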

How the results depend on the processing

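With a fold change over 1.5, members higher with C70 numbered 12 on day 0 and 16 on day 1, and members lower numbered 2 on day 1 and 0 on day 7. With no fold threshold, 39 were higher and 10 lower on day 1, 57 were higher on day 2, and 2 were lower on day 7, and with library totals alone 8 were lower on day 1. The rule itself gave 193 members at 1.5 times each other day, 7 at 3 times, and 38 when every day 1 vehicle library had to be at least 2 times every library of the other days. The rule used library totals, whereas the tests used TMM scaling. On the TMM scale the smallest vehicle estimates among the members were 0.96 log2 for day 1 over day 0, 0.94 over day 2 and 0.90 over day 7. These lie below a 2-fold difference, so some members would miss the rule on that scale. Of the 7 genes chosen at 3 times, 5 were higher and 0 lower on day 1. Of the 29 genes chosen in C70 columns, an alternative added after the data were seen, 21 were higher and 1 lower on day 1, 27 were higher and 0 lower on day 2, and the step to day 2 was more positive for 18 and more negative for 1.

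Leaving out each library in turn gave 19 to 21 members higher and 0 to 1 lower on day 0, 24 to 27 higher and 3 to 7 lower on day 1, 52 to 54 higher and 0 to 1 lower on day 2, and 36 to 40 higher and 1 to 2 lower on day 7. The climb was larger for 14 to 17 and smaller for 5 to 9, the step to day 2 more positive for 41 to 51 and more negative for 0, a called peak in C70 cells for 54 to 56, and the rule gave 53 to 62 members. Estimates near 0 changed sign. Aldh3a1 on day 1 was 6.3e-05 by limma voom and between -0.225 and 0.179 when a library was left out, Aspn on day 1 was -0.031 by library totals and between -0.019 and 0.068, and Emb on day 2 lay between -0.048 and 0.023. The step of Pde4d to day 2 was 0.023 by library totals. In each case the cause was not tested. Of 3441 recomputed values for 96 results on single genes, 3373 kept direction and call, 36 lost a call, 21 gained one and 11 changed sign.

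Same-numbered libraries correlated from -0.205 to 0.214, so the numbers were not taken as pairs. With a replicate block, 26 members were higher and 5 lower on day 1, 53 were higher on day 2, and the step to day 2 was more positive for 48.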
